A study of Mus musculus with 18 samples.

Results

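The genes described here encode the proteasome: its core subunits, its immunoproteasome variants, its regulatory particle, its activators and its assembly chaperones. They were chosen by symbol, as every gene in the deposited count tables whose name starts with Psm, a letter from a to g and a digit, and 50 of 22598 genes fitted. Of these, 49 are subunits, activators, chaperones or a regulator of the proteasome. The exception, Psmc3ip, is a DNA recombination cofactor that fits by its symbol only.

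RNA of macrophages grown from mouse bone marrow (BMDMs), primary cells labelled wild type, was sequenced in 18 libraries, with 3 libraries in each of 6 groups, all at 18 h. The groups were IFNg with TNF, IFNg with LPS, IFNg with IL1b, IFNg with hypoxia, IFNg alone, and an untreated control. IFNg is interferon-gamma, a cytokine of activated T and NK cells. TNF and IL1b are inflammatory cytokines, and LPS is a bacterial cell wall component sensed by Toll-like receptors. No library received TNF, LPS, IL1b or hypoxia without IFNg, so each addition was compared with IFNg alone, and these comparisons share the same 3 IFNg libraries. The sources used here give neither doses nor the oxygen level. The titles number the libraries of each group 1 to 3, with the same numbers in all 6 groups. They do not say whether a number marks a mouse, a culture or a preparation. The p-values therefore measure the spread between these libraries, which may be technical.

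The proteasome degrades proteins that carry ubiquitin. Its 20S core is a barrel of alpha and beta rings, and in the beta rings Psmb6 (beta1), Psmb7 (beta2) and Psmb5 (beta5) carry the active sites. The 19S regulatory particle caps the barrel: its Psmc ATPases unfold substrates, and its Psmd subunits bind and remove ubiquitin. IFNg is known to induce Psmb9 (beta1i), Psmb10 (beta2i) and Psmb8 (beta5i), which replace the constitutive active subunits in newly built cores, and the PA28 activator made of Psme1 and Psme2. Together they favour peptides that suit MHC class I presentation. When proteasome capacity falls short, the transcription factor Nfe2l1 is known to raise the constitutive genes through antioxidant-type elements in their promoters.

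Promoter sequence is shown for Psmb8, Psme1 and Psmb6, inducible genes or counterparts whose windows each held 1 of the 3 searched motifs. The window of Psmb5 also held a match and is not shown. The sequences are from RefSeq on GRCm38.p6, on the plus strand of the genome, which is also the strand of each gene. They run from 150 bases before to 20 bases after the annotated start. Capitals mark the motif match, which in Psme1 reads on the other strand.
Psmb8, chr17:34198045-34198214, STAT-type word at -97 to -89: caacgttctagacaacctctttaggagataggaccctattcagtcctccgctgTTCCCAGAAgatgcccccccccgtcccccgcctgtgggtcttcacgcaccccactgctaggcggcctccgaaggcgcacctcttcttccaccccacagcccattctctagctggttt
Psme1, chr14:55578344-55578513, IRF-type word at 10 to 19: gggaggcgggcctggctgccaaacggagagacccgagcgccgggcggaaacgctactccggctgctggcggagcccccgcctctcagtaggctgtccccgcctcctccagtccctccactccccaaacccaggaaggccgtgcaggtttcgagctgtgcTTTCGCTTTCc
Psmb6, chr11:70525207-70525376, antioxidant-type word at -9 to -1: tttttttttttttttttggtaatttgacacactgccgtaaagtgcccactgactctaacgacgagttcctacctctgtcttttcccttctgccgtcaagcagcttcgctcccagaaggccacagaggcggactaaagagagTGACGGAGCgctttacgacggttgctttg

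The motifs were searched on both strands of 300-base windows, 250 bases before and 50 after each start, and 42 members had a window in the RefSeq table. The IRF-type word, GAAA followed by any 2 bases and GAAA, was present in 3.44% of all 32851 windows and in windows of 5 members (Psme1, Psmb3, Psmd4, Psmd9 and Psmg4). The STAT-type word TTCNNNGAA was present in 8.3% of all windows and in windows of 3 members (Psmb8, Psmd2 and Psmg1). The antioxidant-type word TGACNNNGC was present in 12.4% of all windows and in windows of 6 members (Psmb5, Psmb6, Psmc6, Psmd9, Psmd12 and Psme4). The windows of Psmb9, Psmb10, Psme2 and Psmd10 held none of the 3 words. No matches of different motifs overlapped in a member's window. A match is only a word in the sequence, and binding was not measured.

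Library totals lay between 12270565 and 20952799 counts, and levels are given in CPM, counts scaled to library size with the trimmed mean of M-values (TMM). A count of 3 corresponded to 0.151 to 0.255 CPM. All 10 macrophage markers were measured above the filter, with summed levels of 13329 to 26964 CPM. The sum was 21402 to 26964 CPM in controls, 13431 to 15073 CPM in IFNg alone and 13329 to 19993 CPM in the other groups. Single markers differed in both directions. Cd163 averaged 54.5 CPM in controls, 4.95 CPM in IFNg alone and 0.328 CPM in IFNg with TNF. Cd14 averaged 1171 CPM in controls, 148 CPM in IFNg alone and 5321 CPM in IFNg with TNF. Of 10 granulocyte markers 9 passed the filter, and their sum was 11.003 to 14.99 CPM in IFNg with TNF, 28.9 to 44.4 CPM in IFNg with LPS, 85.69 to 100.5 CPM in IFNg with IL1b, 66.4 to 95.01 CPM in IFNg with hypoxia, 108 to 129.9 CPM in IFNg alone and 109 to 166 CPM in controls. The 5 dendritic cell markers summed to 16.95 to 18.3 CPM in IFNg with TNF, 22.8 to 33.5 CPM in IFNg with LPS, 63.03 to 66.3 CPM in IFNg with IL1b, 115 to 145 CPM in IFNg with hypoxia, 88.5 to 94.6 CPM in IFNg alone and 2.38 to 4.04 CPM in controls. Clec9a carried that sum, with a mean of 83.9 CPM in IFNg alone and 0.245 CPM in controls, while Flt3, Zbtb46, Xcr1 and Siglech averaged at most 4.37 CPM in any group.

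Of 7 T cell, 6 B cell and 5 NK cell markers, 2, 2 and 1 passed the filter, and the defining genes Cd3e, Cd3d and Cd3g (T cell), Ms4a1 and Pax5 (B cell) and Ncr1, Klrb1c and Gzma (NK cell) were at 0. Most of the level of each list came from 1 gene, which differed between groups. Ighm, of the B cell list, averaged 9.31 CPM in IFNg with TNF, 81.3 CPM in IFNg with LPS, 459 CPM in IFNg with IL1b, 246.96 CPM in IFNg with hypoxia, 534 CPM in IFNg alone and 639 CPM in controls. Il7r, of the T cell list, averaged 51.3 CPM in IFNg alone and 58.8 to 238 CPM in the other groups, highest with TNF. Klrk1, of the NK cell list, averaged 0.625 CPM in controls and 19.9 to 85.1 CPM in the groups with IFNg, highest in IFNg alone. The part of these cells in the results below was not tested, and in bulk RNA fewer cells of a type and less RNA per cell cannot be told apart.

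Of the 50 members, 49 passed the filter on low counts and were tested. Psmb11, the thymus-specific beta5t, had 0 counts in every library. Psma8, a testis-type alpha subunit, reached 4.51 CPM in 1 IFNg library and no more than 1.66 CPM in the other libraries, and was not called in any comparison. How well reads of 50 bases can be assigned differs between members. More than 50% of the 50-base windows of Psma3 (85.7%), Psma5 (79.2%), Psme2b (70.3%), Psmb3 (70.3%), Psme2 (69.6%), Psmb5 (65.0%) and Psmg3 (52.2%) also occur in another gene, for 4 of these 7 most often a pseudogene.

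The level per kilobase of deposited gene width differed with this property. In IFNg libraries the 4 constitutive core genes above 50% had mean levels of 3.52 to 18.3 CPM per kb, against 144 to 353 CPM per kb for the 7 core genes with under 10% shared windows. In controls the first class had 2.01 to 17.3 CPM per kb and the second 145 to 266 CPM per kb. The levels of Psmb5, Psma3, Psma5, Psmb3 and Psmg3, and the split between Psme2 and Psme2b, are therefore uncertain. Shares between 10% and 50% include those of Psmb7 (21.8%), Psme1 (21.4%) and Psmb8 (11.8%), whose levels may be affected too. Counts of called genes are given below also for the 34 tested members with under 10% shared windows.

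**Figure D1:**
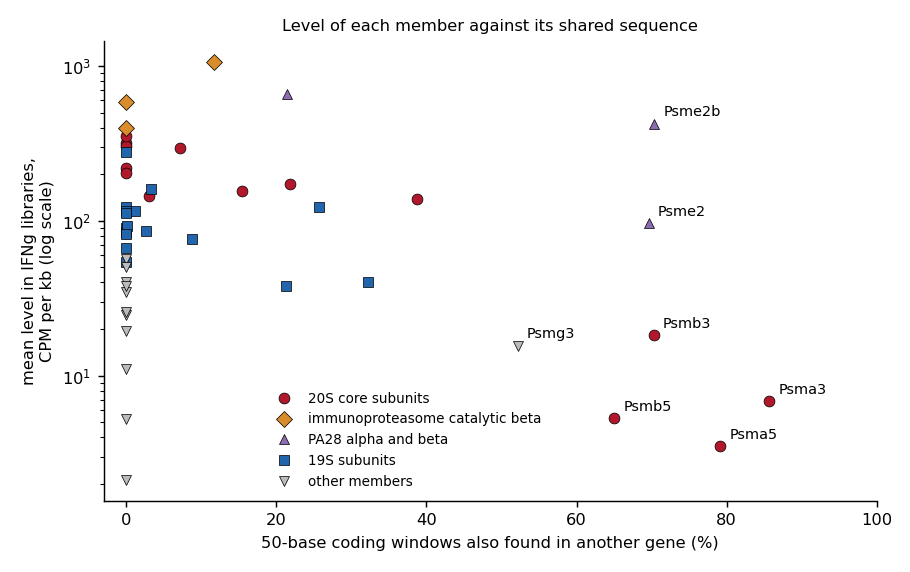
Mean level in the 3 IFNg libraries (CPM per kb of deposited width, log axis) against the percent of each gene's 50-base windows that also occur in another gene; each point is 1 member. The 4 constitutive core genes above 50% lie at 3.52 to 18.3 CPM per kb, while the 7 with under 10% shared windows lie at 144 to 353 CPM per kb.

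IFNg alone against control asked which proteasome genes respond to interferon-gamma in macrophages. All 5 of Psmb8, Psmb9, Psmb10, Psme1 and Psme2 rose, by 3.003-fold (Psme1) to 4.27-fold (Psmb9). In the alpha ring 6 of 7 genes rose as well. The active subunits Psmb5 and Psmb6 did not pass the test, and the lid subunit Psmd8 and the chaperone Psmd10 fell.

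Psmb8 (beta5i; mm10 chr17:34197721-34201454), encoded inside the MHC region, had 923, 743 and 966 CPM in the IFNg libraries, against 207, 192 and 232 CPM in controls. Its log2 fold change was 2.06 ± 0.11 (SE, n = 3 each; edgeR quasi-likelihood test, adjusted p = 2.49e-14). Psmb9 (beta1i; chr17:34181987-34187764), its neighbour in the MHC region, had 293, 209.6 and 281 CPM in the IFNg libraries, against 73.7, 48.7 and 60.8 CPM in controls. Every IFNg library lay above every control for both genes.

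The log2 fold change of Psmb9 was 2.09 ± 0.16 (edgeR, adjusted p = 8.84e-11). Psmb10 (beta2i; chr8:105935735-105938444) had 509, 444 and 494 CPM in the IFNg libraries, against 139, 114 and 170.2 CPM in controls. Its log2 fold change of 1.77 ± 0.14 had an adjusted p of 7.9e-11 (edgeR). The highest control library of Psmb10 lay far below the lowest IFNg library.

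Psme1 (PA28 alpha; chr14:55578123-55581529) had 489, 515 and 475 CPM in the IFNg libraries, against 181, 172 and 139 CPM in controls, a log2 fold change of 1.59 ± 0.11 (edgeR, adjusted p = 1.22e-11). Psme2 (PA28 beta; chr14:55587441-55591113) had 73.7, 68.5 and 74.4 CPM in the IFNg libraries, against 16.3, 27.6 and 26.8 CPM in controls, and rose by 1.62 ± 0.32 on the log2 scale (edgeR, adjusted p = 0.00106). For both genes the groups did not overlap. Psme2b (chr11:48945354-48946190), which shares most of its sequence with Psme2, averaged 305 CPM in the IFNg libraries and 89.9 CPM in controls, a log2 fold change of 1.76 ± 0.15 (edgeR, adjusted p = 2.07e-10).

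**Figure D2:**
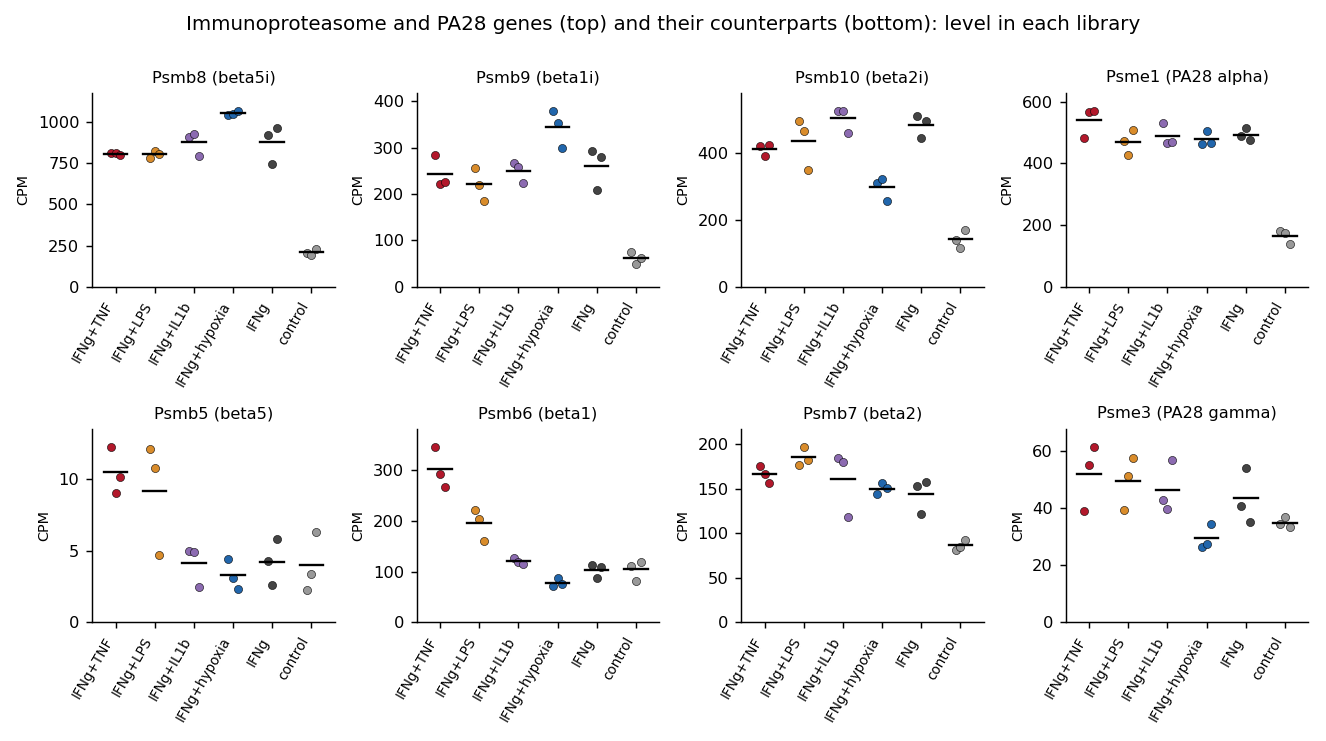
Level in each library (CPM, linear axis from 0) of inducible genes (top row) and of constitutive counterparts and the activator Psme3 (bottom row). Points are the 3 libraries of a group and the line is their mean. The 3 control libraries of Psmb8, Psmb9, Psmb10 and Psme1 lie below all 15 libraries with IFNg, and Psmb6 is highest with TNF (mean 301 CPM).

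The counterparts of these genes, and the activator Psme3, showed smaller differences. Psmb7 (beta2), exchanged for Psmb10, had 153, 122 and 158 CPM in the IFNg libraries, against 81.4, 84.97 and 92.5 CPM in controls, and rose by 0.74 ± 0.14 on the log2 scale (edgeR, adjusted p = 0.000138). Psmb6 (beta1), exchanged for Psmb9, had 113, 87.8 and 108 CPM in the IFNg libraries, against 112, 81.4 and 119.6 CPM in controls. These values overlapped, and the log2 difference of -0.017 ± 0.15 was not called (edgeR, adjusted p = 0.96).

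Psmb5 (beta5), exchanged for Psmb8, averaged 4.22 CPM in the IFNg libraries and 3.98 CPM in controls and was not called (edgeR, log2 difference 0.088 ± 0.46, adjusted p = 0.929). Psme3 (PA28 gamma), a nuclear activator, averaged 43.4 CPM in the IFNg libraries and 34.9 CPM in controls and was not called either (edgeR, 0.31 ± 0.20, adjusted p = 0.291).

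Across all members, 22 rose and 2 fell of 49 tested (edgeR, adjusted p under 0.05), against a background of 13.5% of all 11563 genes tested called higher and 10% called lower. The median log2 fold change was 0.38 over the members and -0.015 over all genes tested. Among the 34 members with under 10% shared windows, 13 rose and 2 fell. Scaling by the library totals implied by the deposited RPKM values moved the median of all genes to -0.17 and left 13 higher and 2 lower of 49. All 5 inducible genes were called higher under both scalings.

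Of the 24 calls 16, those of the 5 inducible genes included, were kept whichever library was left out. Psmd10 lost its call without control replicate 2 (adjusted p = 0.0596). Psma6 lost it without any single library other than control replicate 1, Psmc2 without control replicate 2 or IFNg replicate 1 or 3, and Psmd1 and Psmd11 without control replicate 1 or 2 or IFNg replicate 2 or 3, with adjusted p up to 0.178.

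In the alpha ring, which forms the gate of the core, 6 of 7 genes rose with TMM scaling and 4 with the RPKM totals. Psma7 (alpha4) had 245, 224 and 214 CPM in the IFNg libraries, against 113, 125 and 129 CPM in controls (log2 fold change 0.90 ± 0.13; edgeR, adjusted p = 7.09e-06). Psma4 (alpha3) had 109, 96.5 and 118 CPM in the IFNg libraries, against 69.97, 60.6 and 38.6 CPM in controls (0.93 ± 0.15; edgeR, adjusted p = 1.91e-05). Neither gene's groups overlapped. Psma3 (alpha7) was called at a low level, 5.27 CPM with IFNg and 1.85 CPM in controls (1.5 ± 0.53; edgeR, adjusted p = 0.0403), and that call was lost without IFNg replicate 2 (adjusted p = 0.296) or control replicate 3 (adjusted p = 0.17), with the RPKM totals (adjusted p = 0.0704) and when only these groups were fitted (adjusted p = 0.0971).

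Of the structural beta genes, Psmb2 (beta4) rose. It had 230.5, 219 and 193 CPM in the IFNg libraries, against 124, 105 and 112 CPM in controls (0.91 ± 0.12; edgeR, adjusted p = 1.19e-06), with every IFNg library above every control. Psmb1, Psmb3 and Psmb4 were not called, with log2 differences of 0.14, 0.083 and 0.43.

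Of 17 subunits of the 19S particle, 6 rose and 1 fell with IFNg, with a median log2 fold change of 0.30, but 1 rose and 1 fell when libraries were scaled by the RPKM totals. The subunit that fell was Psmd8 (Rpn12, in the lid), with 281, 323 and 302 CPM in the IFNg libraries, against 408, 430.3 and 379 CPM in controls (-0.43 ± 0.099; edgeR, adjusted p = 0.00162). Psmd10 (gankyrin, a chaperone of 19S assembly; chrX:140948429-140956728) had 25.4, 23.5 and 23.5 CPM in the IFNg libraries, against 34.1, 44.5 and 33.5 CPM in controls (-0.63 ± 0.17; edgeR, adjusted p = 0.00649). For both genes every IFNg library lay below every control.

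Among the remaining members, Psme4 (PA200, an activator that binds the ends of the core) and Psmf1 (PI31, a proteasome regulator) rose by 0.38 and 0.46 on the log2 scale (edgeR, adjusted p of 0.016 and 0.0468). With the RPKM totals neither was called, nor was Psme4 without control replicate 1 or 3 or IFNg replicate 3 (adjusted p up to 0.109), nor Psmf1 without any single library other than control replicate 1 or IFNg replicate 2 (adjusted p up to 0.308). None of the 4 chaperones of 20S assembly, Psmg1 to Psmg4, was called.

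**Figure D3:**
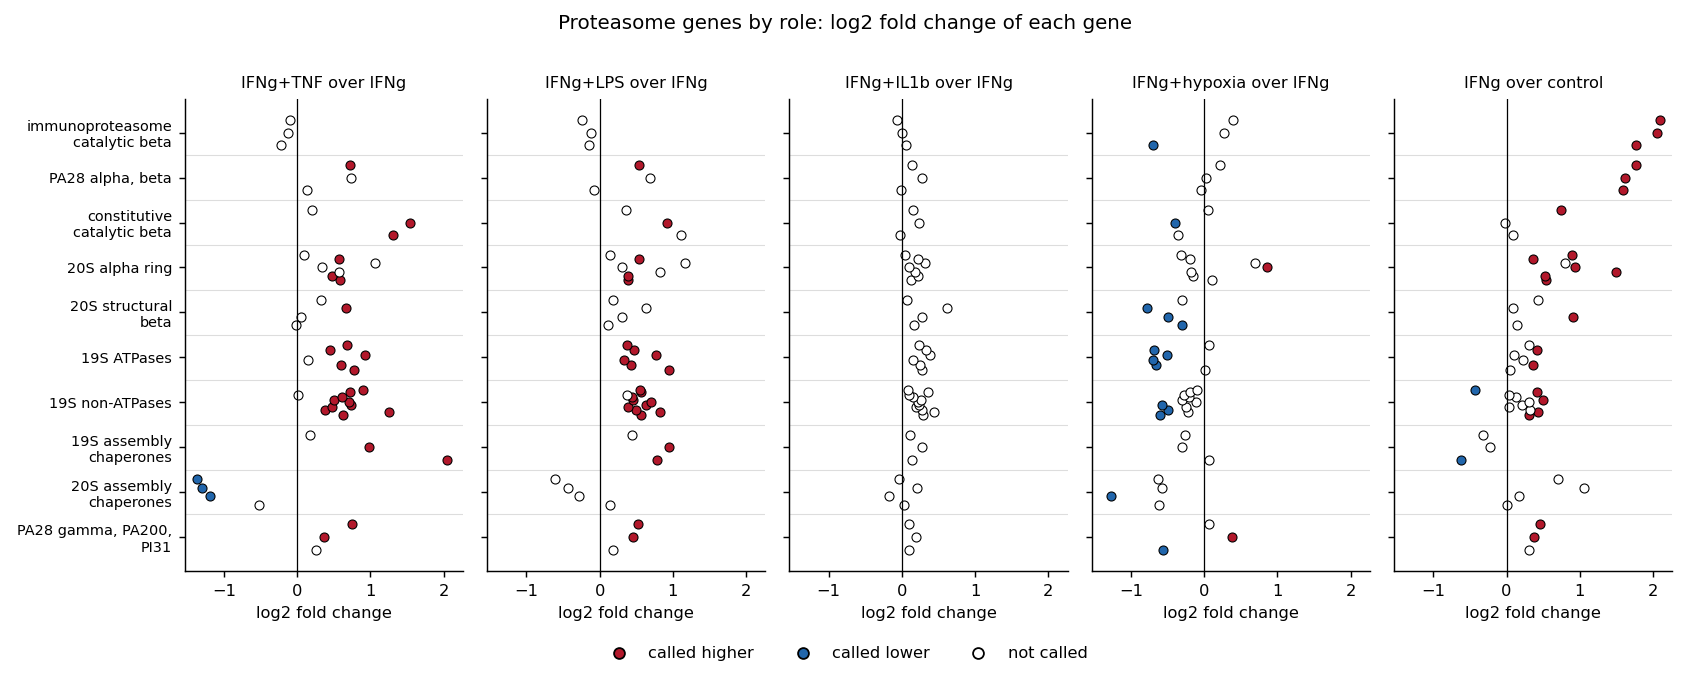
Log2 fold change of each tested member (x axis) by its role (y axis) in 5 comparisons, from edgeR; red points were called higher, blue points lower and white points not called at an adjusted p of 0.05. The 5 inducible genes stand at 1.59 to 2.09 in IFNg over control, and the 19S genes are called higher with TNF (15 of 17) and LPS (16 of 17) and lower with hypoxia (7 of 17). Psma8 and Psmc3ip are left out.

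TNF with IFNg was compared with IFNg alone to see what a further cytokine adds. Constitutive proteasome genes rose, with 15 of 17 subunits of the 19S particle among them, and none of the 5 inducible genes was called. Of the 14 constitutive core genes 6 were called (42.9%), all higher, beside 44.7% of all genes tested. The members with the largest rises were Psmd10 (4.13-fold), Psmb6 (2.92-fold) and Psmb5 (2.48-fold). The 20S assembly chaperones Psmg2, Psmg3 and Psmg4 fell.

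Of 49 members, 26 rose and 3 fell, against a background of 22.1% of all genes called higher and 22.6% called lower, 44.7% in all. Of the 41 constitutive members, 25 rose and 3 fell. Among the 34 members with under 10% shared windows, 19 rose and 2 fell. Of the 29 calls 24 were kept whichever library was left out. The others were Psmb5, Psmg3 and Psmg4, described below, Psme4, lost without TNF replicate 2 (adjusted p = 0.0707), and Psmb3, lost without replicate 1 or 2 of IFNg or 2 or 3 of TNF (adjusted p up to 0.159). The median log2 fold change was 0.48 over the members and -0.049 over all genes.

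These counts depended on the scaling. With the RPKM totals the median of all genes was -0.37, and 16 members were higher and 8 lower. Under that scaling 10 of 17 19S subunits were higher, all 4 20S chaperones were lower, and Psmb8 (-0.44, adjusted p = 0.000743), Psmb9 (-0.42, adjusted p = 0.0275) and Psmb10 (-0.55, adjusted p = 0.00101) were called lower by edgeR.

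Of the 6 ATPases of the 19S particle 5 rose with TNF, and of its 11 non-ATPases 10, with a median log2 fold change of 0.63 over all 17. Psmc4 (Rpt3, an ATPase) had 215, 189.7 and 207 CPM with TNF, against 111, 100.5 and 109.6 CPM with IFNg alone, a log2 fold change of 0.93 ± 0.11 (edgeR, adjusted p = 7.09e-08). Psmd11 (Rpn6, which ties the lid to the core) had 119, 118 and 124 CPM with TNF, against 42.4, 56.9 and 52.7 CPM with IFNg alone (1.25 ± 0.15; edgeR, adjusted p = 1.22e-07). The groups of both genes lay apart, although 32.2% of the windows of Psmd11 occur in other genes.

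Psmd8, lower with IFNg than in controls, had 540.1, 549.8 and 598 CPM with TNF, against 281, 323 and 302 CPM with IFNg alone (0.90 ± 0.099; edgeR, adjusted p = 2.42e-08). Psmd14 (Rpn11), the enzyme that removes ubiquitin chains from substrates, averaged 132 CPM with TNF and 79.5 CPM with IFNg alone (0.74 ± 0.13; edgeR, adjusted p = 4.47e-05). Again neither gene's groups overlapped. The subunits not called were Psmc3 (0.15) and Psmd6 (0.016).

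Psmd10 had 94.8, 80.8 and 124 CPM with TNF, against 25.4, 23.5 and 23.5 CPM with IFNg alone, a log2 fold change of 2.05 ± 0.17 (edgeR, adjusted p = 1.77e-10). None of its 50-base windows occurs in another gene, and its lowest TNF library lay far above its highest IFNg library. A further chaperone of the 19S base, Psmd5, averaged 73.8 CPM with TNF and 37.5 CPM with IFNg alone (0.97 ± 0.18; edgeR, adjusted p = 6.47e-05), while Psmd9 was not called (0.17).

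Psmb6 (chr11:70525367-70527858), the counterpart of Psmb9, had 345, 291 and 265 CPM with TNF, against 113, 87.8 and 108 CPM with IFNg alone (1.54 ± 0.15; edgeR, adjusted p = 1.9e-09). Psmb5 had 12.2, 9.005 and 10.1 CPM with TNF, against 4.27, 2.59 and 5.81 CPM with IFNg alone (1.31 ± 0.46; edgeR, adjusted p = 0.0214). Both lay above IFNg alone in every TNF library, but the call of Psmb5 was lost with the RPKM totals (adjusted p = 0.0711) and without IFNg replicate 1, IFNg replicate 2 or TNF replicate 1 (adjusted p of 0.0547, 0.104 and 0.0678). Psmb7 averaged 166 CPM with TNF and 144 CPM with IFNg alone and was not called (edgeR, 0.20 ± 0.14, adjusted p = 0.246).

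The 5 inducible genes were not called under TMM scaling. Psmb8 had 812, 811 and 798 CPM with TNF, against 923, 743 and 966 CPM with IFNg alone, and the groups overlapped (edgeR, -0.12 ± 0.11, adjusted p = 0.382). Psmb10 had 420.3, 391 and 423 CPM with TNF, against 509, 444 and 494 CPM with IFNg alone (edgeR, -0.23 ± 0.14, adjusted p = 0.178), with every TNF library below every IFNg library. The log2 differences of Psmb9 and Psme1 were -0.10 ± 0.15 and 0.13 ± 0.11 (edgeR, adjusted p of 0.625 and 0.373).

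Psme2 had 163, 63.4 and 132 CPM with TNF, against 73.7, 68.5 and 74.4 CPM with IFNg alone (edgeR, 0.73 ± 0.31, adjusted p = 0.0677). The second TNF library lay below all IFNg libraries, and without it Psme2 was called (1.03, adjusted p = 0.00312). Psme2b was called higher (0.72 ± 0.14; edgeR, adjusted p = 0.000128). The summed level of Psme1, Psme2 and Psme2b was 1137 to 1185 CPM with TNF, against 838 to 899 CPM with IFNg alone.

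The chaperones that help assemble the alpha ring went the other way. Psmg2 (PAC2) had 5.56, 8.41 and 6.12 CPM with TNF, against 19.9, 10.2 and 16.00 CPM with IFNg alone (-1.2 ± 0.34; edgeR, adjusted p = 0.00495), with no overlap. Psmg4 (PAC4) averaged 5.498 CPM with TNF and 14.1 CPM with IFNg alone (-1.37 ± 0.44; edgeR, adjusted p = 0.0135), and lost its call without TNF replicate 2 (adjusted p = 0.0744) or IFNg replicate 1 (adjusted p = 0.0609). Psmg3 (PAC3) averaged 2.33 CPM with TNF and 5.77 CPM with IFNg alone (-1.3 ± 0.51; edgeR, adjusted p = 0.0402). Its groups overlapped, and leaving out any single library other than IFNg replicate 1 ended its call, with adjusted p up to 0.153.

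LPS with IFNg was compared with the same IFNg libraries. Here too the 19S particle rose, with all 6 ATPases, and none of the 5 inducible genes was called. Psme2b, which shares most of its sequence with Psme2, was called higher. Of 49 members 25 rose and 0 fell, against a background of 10.2% of all genes called higher and 10.1% called lower, 20.3% in all. The median log2 fold change was 0.44 over the members and -0.0036 over all genes. Among the 34 members with under 10% shared windows 20 rose, and 22 members rose with the RPKM totals.

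Of the 25 calls 17 were kept whichever library was left out. The others were Psmc2 and Psme2b, lost without IFNg replicate 2, Psmc3, lost without replicate 1 of either group, Psmd3, lost without IFNg replicate 1 or LPS replicate 2, Psma2, lost without IFNg replicate 3 or LPS replicate 2, and Psmd13, lost without IFNg replicate 2 or LPS replicate 3, with adjusted p up to 0.104. Psmc6 lost its call without any IFNg replicate or LPS replicate 3 (adjusted p up to 0.347), and Psmf1 without IFNg replicate 1 or 2 or LPS replicate 2 or 3 (adjusted p up to 0.138).

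Of the 11 non-ATPases 10 rose with LPS, and the median log2 fold change of the 17 subunits was 0.50. Psmc4 had 196, 170.4 and 181 CPM with LPS, against 111, 100.5 and 109.6 CPM with IFNg alone (0.77 ± 0.11; edgeR, adjusted p = 5.68e-06). Psmc1 (Rpt2), whose tail is known to open the core gate, had 107, 94.7 and 88.1 CPM with LPS, against 53.4, 38.4 and 58.03 CPM with IFNg alone (0.95 ± 0.20; edgeR, adjusted p = 0.00102). Neither gene's groups overlapped, although 21.3% of the windows of Psmc1 occur in other genes.

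Psmd11 had 84.9, 99.3 and 84.2 CPM with LPS, against 42.4, 56.9 and 52.7 CPM with IFNg alone (0.82 ± 0.15; edgeR, adjusted p = 0.000179). The chaperones Psmd5 and Psmd10 rose with it. Psmd5 averaged 72.4 CPM with LPS and 37.5 CPM with IFNg alone (0.95 ± 0.18; edgeR, adjusted p = 0.000257). Psmd10 had 42.4, 43.5 and 39.1 CPM with LPS, against 25.4, 23.5 and 23.5 CPM with IFNg alone (0.79 ± 0.17; edgeR, adjusted p = 0.00108). Psmd6 was the 19S subunit that missed the threshold (edgeR, 0.38 ± 0.14, adjusted p = 0.0612), with all 3 LPS libraries above all 3 IFNg libraries.

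Of the 14 constitutive core genes 4 were called with LPS (28.6%), all higher, beside 20.3% of all genes tested. Among them, Psmb6 had 221, 203 and 161 CPM with LPS, against 113, 87.8 and 108 CPM with IFNg alone (0.92 ± 0.15; edgeR, adjusted p = 2.82e-05). Psmb5 had 12.1, 10.7 and 4.67 CPM with LPS, against 4.27, 2.59 and 5.81 CPM with IFNg alone, which overlapped (edgeR, 1.12 ± 0.46, adjusted p = 0.0868), and it was called without LPS replicate 3 (1.43, adjusted p = 0.0289). Psmb7 missed the threshold (edgeR, 0.36 ± 0.14, adjusted p = 0.0642), and DESeq2 called it (adjusted p = 0.0488).

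Among the inducible genes, Psmb8, Psmb9, Psmb10 and Psme1 differed by -0.12, -0.24, -0.14 and -0.071 on the log2 scale, with adjusted p between 0.318 and 0.744 (edgeR). Psme2 had 143, 138 and 67.5 CPM with LPS, against 73.7, 68.5 and 74.4 CPM with IFNg alone (edgeR, 0.69 ± 0.31, adjusted p = 0.142). The third LPS library lay below all IFNg libraries, and without it Psme2 was called (0.96, adjusted p = 0.0283). It was also called with all libraries when only these groups were fitted (0.69, adjusted p = 0.03). Psme2b was called higher (0.54; edgeR, adjusted p = 0.00602), though not without IFNg replicate 2 (adjusted p = 0.0597). The summed level of Psme1, Psme2 and Psme2b was 989 to 1074 CPM with LPS, against 838 to 899 CPM with IFNg alone.

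LPS was set directly against TNF, both with IFNg, as the test of whether these additions differ. Of 49 members 1 was higher and 4 were lower with LPS, against a background of 12.2% of all genes called higher and 13.1% called lower. Psmd10 (-1.26 ± 0.17; edgeR, adjusted p = 2e-06) and Psmb6 (-0.62 ± 0.15; edgeR, adjusted p = 0.00191) were lower with LPS, with no overlap between the groups. Psmd8 (-0.35) and Psmd11 (-0.43) were also called lower and Psmg2 higher (0.91), but none of these 3 calls was kept without TNF replicate 3 or without LPS replicate 1, which left 2 members called each time. Psmd11 also lost its call without TNF replicate 1 or 2 or LPS replicate 3 (adjusted p of 0.0604, 0.0642 and 0.0987), and Psmg2 without TNF replicate 1 or LPS replicate 3 (0.147 and 0.141). When only these groups were fitted, none of the 3 was called (adjusted p of 0.0564 to 0.0831).

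Scaling changed the direction of this comparison. With the RPKM totals the median of all genes was 0.26, 9 members were higher and 2 lower with LPS, and the lower ones were Psmd10 and Psmb6 as before. None of the 5 inducible genes was called under either scaling, and Psmb8 averaged 806 CPM with LPS and 807 CPM with TNF.

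**Figure D4:**
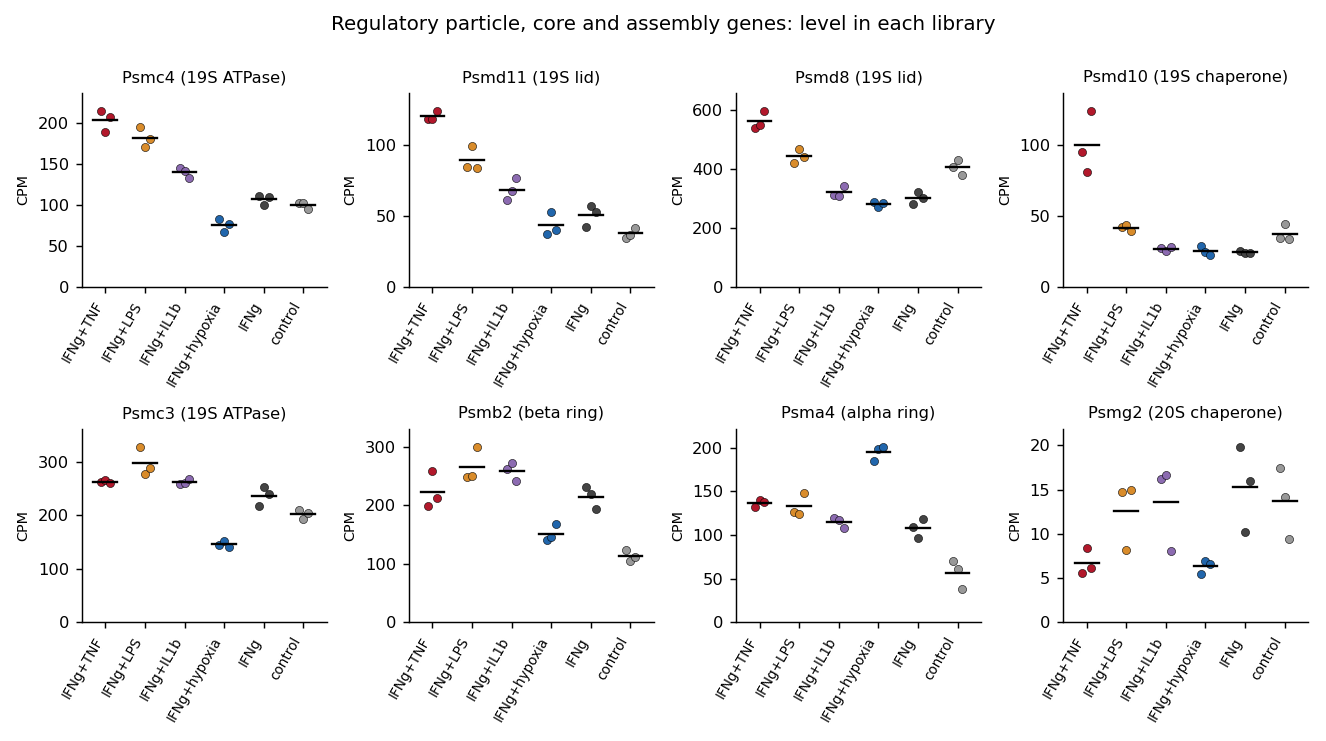
Level in each library (CPM, linear axis from 0) of genes of the regulatory particle, the core and the assembly chaperones; points are the 3 libraries of a group and the line is their mean. Psmd10 averages 99.9 CPM with TNF and 41.7 CPM with LPS, against 24.1 CPM with IFNg alone, and with hypoxia Psmc3 lies below IFNg alone (146 against 236 CPM) and Psma4 above it (195 against 108 CPM).

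IL1b with IFNg left no member called by edgeR, against a background of 0.303% of all genes called, 0.268% higher and 0.0346% lower. At an unadjusted p under 0.05 there were 9 of 49 members, all with a positive log2 fold change, beside 596 of 11563 genes tested. DESeq2 called 1 member higher. The log2 fold changes of the 17 19S subunits were all positive, between 0.088 and 0.43, with a median of 0.24. Of all 11563 genes tested, 5723 had a positive log2 fold change. Psmc4 had 145, 141 and 133 CPM with IL1b, against 111, 100.5 and 109.6 CPM with IFNg alone, and its groups did not overlap (edgeR, 0.39 ± 0.11, adjusted p = 0.211). Psmb8 averaged 879 CPM with IL1b and 877 CPM with IFNg alone, and the log2 differences of the 5 inducible genes lay between -0.064 and 0.28.

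Hypoxia with IFNg was compared with IFNg alone. Constitutive genes fell, among them ATPases of the 19S particle and structural beta genes, while the 3 active subunits of the immunoproteasome went different ways. Psmb10 fell, and Psmb8 and Psmb9 lay above IFNg alone in every library without passing the test. Of 49 members 2 rose and 15 fell, against a background of 13.5% of all genes called higher and 11.8% called lower.

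Of the 17 calls 11 were kept whichever library was left out, and the others are named beside their values. The median log2 fold change was -0.28 over the members and -0.011 over all genes. Among the 34 members with under 10% shared windows, 1 rose and 14 fell. With the RPKM totals the median of all genes was -0.26, 1 member was higher and 28 were lower, and 15 of 17 19S subunits were lower, against 7 with TMM scaling.

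Psmb10 had 311, 322 and 256 CPM with hypoxia, against 509, 444 and 494 CPM with IFNg alone (-0.70 ± 0.14; edgeR, adjusted p = 0.000295). Psmb8 had 1044, 1051 and 1069 CPM with hypoxia, against 923, 743 and 966 CPM with IFNg alone (edgeR, 0.27 ± 0.11, adjusted p = 0.0706). Psmb9 had 379, 353 and 299 CPM with hypoxia, against 293, 209.6 and 281 CPM with IFNg alone (edgeR, 0.40 ± 0.15, adjusted p = 0.0606). The groups did not overlap for any of the 3 genes, with hypoxia below IFNg alone for Psmb10 and above it for Psmb8 and Psmb9.

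Psmb8 and Psmb9 stood close to the threshold. DESeq2 called both higher (Psmb8 0.28, adjusted p = 0.0255, and Psmb9 0.41, adjusted p = 0.0405), and so did the fit of only these groups (adjusted p of 0.0414 and 0.0137). Psmb8 was also called without IFNg replicate 3, and Psmb9 with relative log expression factors, without the filter on low counts, and without IFNg replicate 1 or hypoxia replicate 3 (adjusted p of 0.0431 to 0.0498 for these). With the RPKM totals their log2 differences were 0.023 and 0.15 and neither was called. Psme1 and Psme2 differed by -0.047 ± 0.11 and 0.024 ± 0.31 (edgeR, adjusted p of 0.818 and 0.972).

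Of the 19S subunits 4 of 6 ATPases (66.7%) and 3 of 11 non-ATPases (27.3%) fell with hypoxia. Of all genes tested 25.2% were called in either direction and 11.8% lower, so the share of the non-ATPases called was near the background. Psmc3 (Rpt5) had 144, 152 and 142 CPM with hypoxia, against 218, 253 and 239 CPM with IFNg alone (-0.70 ± 0.10; edgeR, adjusted p = 6.65e-06), without overlap. The ATPases Psmc2, Psmc4 and Psmc5 had log2 fold changes of -0.66, -0.50 and -0.69 and also fell, whereas Psmc1 and Psmc6 differed by 0.007 and 0.064 and were not called. The non-ATPases that fell were Psmd1 (-0.60), the scaffold of the base, Psmd12 (-0.49), a lid subunit, and Psmd14 (-0.58).

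In the core, Psmb2 had 141, 145 and 167 CPM with hypoxia, against 230.5, 219 and 193 CPM with IFNg alone (-0.50 ± 0.12; edgeR, adjusted p = 0.00271), without overlap. Psmb1 (-0.30, adjusted p = 0.0387), Psmb3 (-0.78, adjusted p = 0.0373) and Psmb6 (-0.40, adjusted p = 0.0475) also fell in the edgeR test. The call of Psmb1 was lost without any single library other than IFNg replicate 3 or hypoxia replicate 2, with adjusted p up to 0.158. That of Psmb3 was lost without any single library other than IFNg replicate 2, with adjusted p up to 0.136, and that of Psmb6 without any other than replicate 2 of either group, with adjusted p up to 0.181. Psma4 went the other way: it had 185, 198 and 201 CPM with hypoxia, against 109, 96.5 and 118 CPM with IFNg alone (0.85 ± 0.15; edgeR, adjusted p = 7.62e-05), although 38.8% of its windows occur in another gene.

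Psme4 rose, with an average of 289.6 CPM with hypoxia and 223 CPM with IFNg alone (0.38 ± 0.12; edgeR, adjusted p = 0.0168), but was not called without IFNg replicate 1 or 2 or hypoxia replicate 3 (adjusted p up to 0.0613) or with the RPKM totals. Psme3 fell to 29.5 CPM with hypoxia, against 43.4 CPM with IFNg alone (-0.56 ± 0.20; edgeR, adjusted p = 0.0402), and lost its call without replicate 1 or 2 of either group, with adjusted p up to 0.246. Psmg2 had 5.43, 6.896 and 6.64 CPM with hypoxia, against 19.9, 10.2 and 16.00 CPM with IFNg alone (-1.28 ± 0.34; edgeR, adjusted p = 0.00603), without overlap. Psmc3ip, the gene that is no subunit, had 0, 1.02 and 0 CPM with hypoxia, against 2.71, 1.77 and 5.81 CPM with IFNg alone, and was also called lower (edgeR, adjusted p = 0.0193), though not without IFNg replicate 3 (adjusted p = 0.0995) or without hypoxia replicate 1 or 3.

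Inducible genes were also set against their counterparts as RNA ratios within each library, in counts per base of width. Such a ratio does not depend on how libraries are scaled. Neither protein nor the exchange of subunits in assembled cores was measured. For Psme1 and Psme2 the reference was Psme3, a separate activator that is not exchanged for them, and Psme2b was left out. With 3 libraries against 3 the smallest p of the exact two-sided permutation test is 0.1. With IFNg all 4 ratios were higher than in controls without overlap. Psmb9 over Psmb6 was 2.82, 2.59 and 2.81 in the IFNg libraries, against 0.717, 0.6500 and 0.552 in controls, a log2 difference of 2.11 ± 0.12 (exact permutation p = 0.1).

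The log2 differences between IFNg and control were 1.92 ± 0.44 for Psmb8 over Psmb5, 1.05 ± 0.15 for Psmb10 over Psmb7 and 1.3 ± 0.17 for Psme1 and Psme2 over Psme3 (exact permutation p = 0.1 each). All 15 libraries with IFNg, which belong to 5 treatments, were also set against the 3 controls. They are not replicates of 1 condition and their ratios differ between treatments, so these p-values do not measure the spread under IFNg. The Benjamini-Hochberg adjusted exact permutation p was 0.0245 for Psmb8 over Psmb5 and 0.0049 for Psmb9 over Psmb6. It was 0.0098 for Psmb10 over Psmb7 and 0.0049 for the PA28 ratio. The ratio of Psmb8 to Psmb5 rests on the uncertain reads of Psmb5, and its adjusted exact permutation p was 0.0882 without control replicate 2 and 0.147 without control replicate 3. That of Psmb10 to Psmb7 was 0.0588 without control replicate 2.

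Against IFNg alone these ratios differed in both directions. Psmb9 over Psmb6 was 0.892, 0.824 and 0.921 with TNF and 1.27, 1.18 and 1.25 with LPS, against 2.82, 2.59 and 2.81 with IFNg alone. These are log2 differences of -1.64 ± 0.062 and -1.15 ± 0.052, and neither addition overlapped with IFNg alone (exact permutation p = 0.1 each). With hypoxia the ratio was 5.78, 4.38 and 4.301, above all IFNg libraries (0.80 ± 0.14, exact permutation p = 0.1). With IL1b it was 2.298, 2.34 and 2.101, below all IFNg libraries (-0.29 ± 0.062, exact permutation p = 0.1). Psmb8 over Psmb5, which rests on the uncertain reads of Psmb5, differed by -1.48 ± 0.26 with TNF, without overlap (exact permutation p = 0.1). With LPS (-1.19 ± 0.49), IL1b (0.034 ± 0.35) and hypoxia (0.62 ± 0.36) it overlapped with IFNg alone.

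Psmb10 over Psmb7 was 2.197, 2.100 and 1.73 with hypoxia, against 3.37, 3.69 and 3.18 with IFNg alone, a log2 difference of -0.77 ± 0.12 without overlap (exact permutation p = 0.1). In the same libraries Psmb9 over Psmb6 was higher with hypoxia. Psmb10 over Psmb7 was also lower with TNF (-0.44 ± 0.091) and LPS (-0.52 ± 0.17), with no overlap and an exact permutation p of 0.1 each. The PA28 ratio differed by -0.034 ± 0.24 with TNF, -0.14 ± 0.25 with LPS, -0.075 ± 0.22 with IL1b and 0.51 ± 0.22 with hypoxia, and overlapped with IFNg alone in all 4 (exact permutation p of 1, 0.8, 0.6 and 0.2).

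**Figure D5:**
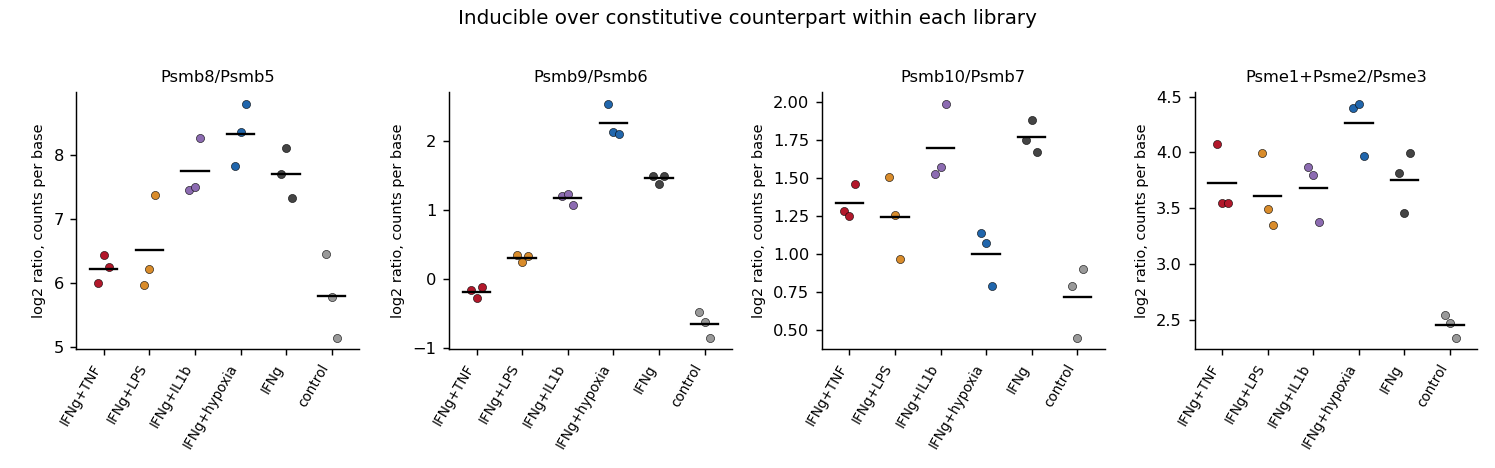
Log2 RNA ratio of each inducible gene to its constitutive counterpart, or of Psme1 and Psme2 to Psme3, within a library. Values are in counts per base of gene width. Points are the 3 libraries of a group and the line is their mean. The mean ratio of Psmb9 to Psmb6, back on the linear scale, is 4.77 with hypoxia, 2.24 with IL1b, 1.23 with LPS and 0.878 with TNF, against 2.74 with IFNg alone and 0.636 in controls.

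Genes that work with the proteasome but carry other symbols were read from a list of 24 tested genes. With TNF 13 rose and 2 fell, with LPS 8 rose and 1 fell, with IL1b none was called by edgeR and 1 had an unadjusted p under 0.05, with hypoxia 2 rose and 3 fell, and with IFNg alone 9 rose and 2 fell relative to control. The share of the list called was 62.5% with TNF, 37.5% with LPS, 20.8% with hypoxia and 45.8% with IFNg, beside 44.7%, 20.3%, 25.2% and 23.6% of all genes tested. With hypoxia it was therefore below the background.

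Pomp, the maturation factor of newly built cores, averaged 186 CPM with IFNg and 77.9 CPM in controls (1.25 ± 0.13; edgeR, adjusted p = 2.06e-08). With TNF it averaged 183 CPM and was not called against IFNg alone (-0.025 ± 0.13; edgeR, adjusted p = 0.898).

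Nfe2l1, the transcription factor of constitutive proteasome genes, averaged 555 CPM with TNF and 393 CPM with LPS, against 241 CPM with IFNg alone (edgeR, log2 fold changes of 1.21 ± 0.099 and 0.71 ± 0.098, adjusted p of 9.76e-11 and 4.02e-06). With hypoxia it averaged 279 CPM and was not called (edgeR, 0.21 ± 0.098, adjusted p = 0.119). Nfe2l2, its relative in the response to oxidants, averaged 874 CPM with TNF and 403 CPM with LPS, against 304 CPM with IFNg alone (1.52 ± 0.11 and 0.41 ± 0.10; edgeR, adjusted p of 3.99e-12 and 0.0052).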

How the data were processed

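RNA of BMDMs was sequenced in 18 libraries of 6 groups. Per the labels' protocols, RNA was extracted with Qiagen RNeasy columns, and libraries were made with a TruSeq stranded mRNA kit and read as single ends on a NovaSeq. Reads were aligned with GSNAP to mm10, per the submitters' processing notes; the sources used here do not name versions, the counter, the annotation or the use of strand, and reads of overlapping or antisense genes may be shared. The deposited count per gene and the RPKM, which per the file headers stand beside a width per gene, were made by the authors. The counts were tested; the RPKM served to recover the library totals behind them (22728833 to 39859629, of which counted reads were 51.7% to 56.5%), and the width gave levels per kilobase.

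Counts of 11563 genes that passed edgeR's default filter were fitted with edgeR 4.0.16 (quasi-likelihood, TMM, 1 mean for each group over all 18 libraries) in R 4.3.3, with Benjamini-Hochberg adjustment over all genes tested and a threshold of 0.05. Fold changes are on the log2 scale. Symbols came from GENCODE M21 (22457 of 22598 IDs), as did coordinates and the 50-base window check. Ratios of 2 genes used counts per width and an exact permutation test (scipy 1.17.1). The edgeR test of IFNg against control was tried on simulated counts. No 2 libraries of a group were copies of one another.

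Replicate numbers come from the sample titles. The comparisons of TNF, LPS, IL1b and hypoxia share the IFNg libraries. Named genes were the 5 inducible genes, their counterparts Psmb5, Psmb6 and Psmb7, and Psme3. In each comparison the 5 other members with the largest log2 fold change among those called were also named. Other members and genes were named by role after their values were seen. The members and lists were chosen with earlier results of these data known. Alternatives were relative log expression factors, the RPKM totals, no filter, DESeq2 1.42.0, a replicate block, only the groups compared, leaving out each library, ratios without width and, chosen after seeing the data, PA28 with Psme1 alone and only members with under 10% shared windows.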

Additional observations from a re-analysis of the deposited data

How the results depend on the processing

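Precision was limited by 3 libraries a group, and for Psmb5, Psma3, Psma5, Psmg3 and Psmg4 by low counts and, other than for Psmg4, shared sequence. The scaling of libraries moved results most. With the library totals behind the deposited RPKM values the number of members called was 15 with IFNg against control, 24 with TNF, 22 with LPS, 29 with hypoxia and 11 for LPS against TNF, beside 24, 29, 25, 17 and 5 with TMM. Under that scaling these log2 differences changed sign, none of them called: Psmb5 with IFNg (-0.0578), Psme1 (-0.19), Psmb7 (-0.12) and Psme3 (-0.0708) with TNF, Psme2 (-0.22) and Psmb7 (-0.19) with hypoxia, and Psmb8 (0.24), Psmb9 (0.10), Psme1 (0.0467), Psme2 (0.20), Psmb5 (0.0469) and Psme3 (0.18) for LPS against TNF. The difference of Psmb8 for LPS against TNF was 0.00102 without the filter on low counts and 0.0233 when only those groups were fitted, a fit that left 2 members called. DESeq2 called 1 member with IL1b. Size factors by relative log expression, no filter, DESeq2 and the fit of only the groups compared kept each other count within 1.5 times. Calls that at least 1 of these settings ended were those of Psma3, Psmd1, Psmd11 and Psmf1 with IFNg, Psmb3 and Psmg3 with TNF, Psmc3 and Psmc6 with LPS, Psmb1 and Psmb3 with hypoxia, and Psmd8, Psmd11 and Psmg2 for LPS against TNF, with adjusted p up to 0.0971.

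The deviations of same-numbered libraries from their group means correlated weakly (45 pairs, -0.095 to 0.23, median 0.035, 9 over 0.1), somewhat above those of differently numbered ones (90 pairs, median -0.026, 2 over 0.1). Of 18 libraries 12 correlated best with their own number, a hint from the data. Not every pair exceeded 0.1 and the labels do not say what a number marks, so the numbers were not taken to pair libraries. With the replicate block 25, 29, 0, 25, 20 and 5 members were called in the comparisons of IFNg, TNF, IL1b, LPS, hypoxia and LPS against TNF. The block ended the calls of Psma3 with IFNg (adjusted p = 0.0501) and Psmg2 for LPS against TNF (adjusted p = 0.0512), and with it Psmb8 and Psmb9 were called higher with hypoxia (adjusted p of 0.0465 and 0.0121).

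Leaving out 1 library at a time gave 18 to 22 members called with IFNg, 26 to 28 with TNF, 0 to 0 with IL1b, 20 to 25 with LPS, 13 to 15 with hypoxia and 2 to 5 for LPS against TNF. Log2 differences that were not called ranged across 0 for Psmb5 (-0.21 to 0.59) and Psmb6 (-0.17 to 0.0945) with IFNg, for Psmb8 (-0.10 to 0.0783), Psmb9 (-0.20 to 0.0272), Psme1 (-0.0749 to 0.0217), Psmb5 (-0.28 to 0.27) and Psme3 (-0.0733 to 0.29) with IL1b, for Psme2 (-0.0575 to 0.12) and Psmb7 (-0.0549 to 0.12) with hypoxia, and for Psmb8 (-0.0201 to 0.0405), Psme2 (-0.35 to 0.25), Psmb5 (-0.42 to 0.12) and Psme3 (-0.24 to 0.0921) for LPS against TNF. Ratios did so for PA28 with TNF (-0.21 to 0.0841), and with IL1b for Psmb8 over Psmb5 (-0.23 to 0.23), Psmb10 over Psmb7 (-0.22 to 0.011) and PA28 (-0.22 to 0.0782). The ratios of all libraries with IFNg against control kept their sign, at 1.19 to 1.84 for Psmb8 over Psmb5, 1.55 to 1.74 for Psmb9 over Psmb6, 0.56 to 0.79 for Psmb10 over Psmb7 and 1.3 to 1.4 for PA28. The cause of these changes was not tested.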

Other observations

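Among 18 tested genes of MHC class I antigen processing, 14 rose and 1 fell with IFNg relative to control. Tap1, a subunit of the peptide transporter that lies beside Psmb9 in the MHC region, averaged 1142 CPM with IFNg and 178 CPM in controls (edgeR, log2 fold change 2.68 ± 0.16, adjusted p = 5.19e-13). Irf1, an interferon-induced transcription factor, averaged 1089 CPM with IFNg and 81.6 CPM in controls (edgeR, 3.74 ± 0.11, adjusted p = 3.51e-20). Relative to IFNg alone, 9 genes of the list rose and 3 fell with TNF, 2 rose and 1 fell with LPS, and 10 rose and 0 fell with hypoxia. The share of the list called was 66.7% with TNF, 16.7% with LPS, 55.6% with hypoxia and 83.3% with IFNg relative to control, beside 44.7%, 20.3%, 25.2% and 23.6% of all genes tested, so that with LPS it was below the background. With IL1b edgeR called none, and none had an unadjusted p under 0.05.

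With hypoxia Tap1 averaged 1625 CPM, against 1142 CPM with IFNg alone (edgeR, 0.51 ± 0.15, adjusted p = 0.013). The class I light chain B2m averaged 10714 CPM with hypoxia and 7349 CPM with IFNg alone (edgeR, 0.54 ± 0.16, adjusted p = 0.0137). With TNF the heavy chain H2-K1 averaged 2262 CPM, against 1337 CPM with IFNg alone (edgeR, 0.76 ± 0.13, adjusted p = 2.23e-05), while Pdia3, a chaperone of peptide loading, averaged 1006 CPM with TNF and 1907 CPM with IFNg alone (edgeR, -0.92 ± 0.099, adjusted p = 1.28e-08). These genes were chosen after their values were seen.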
